A study of Mus musculus with 4 samples.

Results

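The 40 genes described here encode the integrin subunits, the laminin chains, the nidogens Nid1 and Nid2 and perlecan (Hspg2). They were picked by gene symbol from the 25965 genes of the deposited table, with no threshold on measured values but with earlier results of these data known. They comprise 18 integrin alpha genes, 8 integrin beta genes, 11 laminin genes and 3 linker genes. They were measured by RNA sequencing in 4 libraries of cultured aortic vascular smooth muscle cells. They were isolated with collagenase and elastase from the media, the muscular middle layer, of healthy wild-type male mice on the C57Bl/6 background, aged 8 to 14 weeks, and were grown in DMEM with 10% fetal calf serum for 3 to 5 passages. All 4 libraries belonged to this 1 group, with no untreated tissue or other condition beside it, so what can be described is the level of each gene, how genes of 1 library differ and how far the libraries lie apart. The labels do not say whether the libraries came from separate mice or cultures, so the spread between them may be technical.

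Integrins are transmembrane receptors made of an alpha and a beta subunit, and they tie the actin cytoskeleton to the matrix outside the cell. Laminins are cross-shaped trimers of an alpha, a beta and a gamma chain that polymerise into the sheet of the basement membrane, the thin matrix layer that surrounds each smooth muscle cell in the vessel wall. Nidogens and the heparan sulfate proteoglycan perlecan link this laminin sheet to the type IV collagen network, and several integrins and dystroglycan are the cell's receptors for it.

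Levels are given as log2 of the scaled read count of the deposited table, as mean ± SD over libraries (n = 4). Where genes are compared with each other, the level was divided by the length of the gene's merged exons and is called the level per kb. A gene counted as detected at a log2 level of at least 0 in 4 of 4 libraries, which took 30, 29, 22 and 30 reads in libraries 1 to 4. By this rule 31 of the 40 genes were detected, against 47.4% of all genes, and 33 reached the threshold in 1 or more libraries, against 54.6%. Itgax alone had no read in any library, against 28.7% of all genes. Detected were 13 of 18 integrin alpha genes, 5 of 8 integrin beta genes, 10 of 11 laminin genes, both nidogens and perlecan. Of the 9 genes below the rule, 7 were leukocyte integrins, and the other two were Itgb6 and Lama3.

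The libraries held 40342561 to 56793195 recovered reads on genes, and the 40 genes took 0.442% to 0.724% of them. All 6 smooth muscle markers were detected, and their summed scaled reads were 7912, 3623, 11532 and 16266 in libraries 1 to 4. Of 6 fibroblast markers (Pdgfra, Dpt, Pi16, Lum, Dcn, Serpinf1) 5 were detected, with sums of 777, 611, 83.6 and 59.4, and Lum was the one below the rule. Libraries 1 and 2 were thus higher than libraries 3 and 4 in fibroblast markers, and library 2 was lowest in smooth muscle markers. In bulk RNA, fewer cells of a type and less RNA per cell cannot be told apart. Rescaling by median-ratio size factors moved the median of all detected genes by -0.32, -0.10, 0.30 and 0.12 in libraries 1 to 4, so differences between libraries of that size depend on the scaling, while shares and differences within a library do not.

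**Figure D1:**
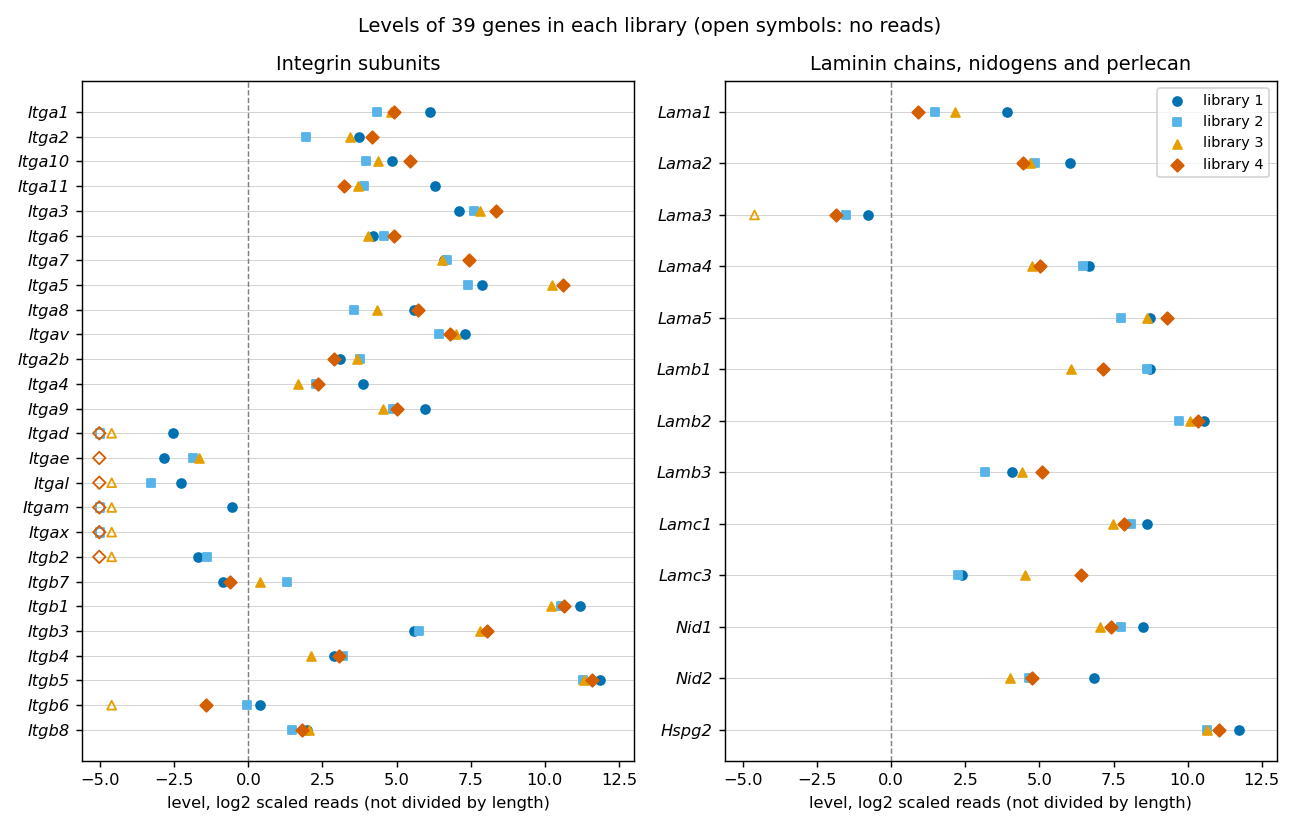
Level of 39 of the genes (log2 scaled reads, x axis) in each library (symbols), ordered by role, with open symbols where a library had no reads and a dashed line at the detection threshold of 0. On average Itgb5, Hspg2, Itgb1 and Lamb2 lie furthest to the right, and in libraries 3 and 4 Itga5 lies above Lamb2. The leukocyte integrins lie at or below the line in most libraries.

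The beta subunits were dominated by Itgb5 and Itgb1. Itgb5 (chromosome 16, 33829665 to 33949153, GRCm38) pairs with alpha v and binds vitronectin. Its levels were 11.87, 11.29, 11.32 and 11.61 in libraries 1 to 4 (11.52 ± 0.27). Itgb1 (chromosome 8, 128685654 to 128733200), the shared partner of most matrix-binding alpha subunits, had levels of 11.20, 10.56, 10.22 and 10.64 (10.66 ± 0.41). Both were high in every library and neither SD exceeded 0.5. Per kb, Itgb5 made up 64.3%, 64.9%, 68.4% and 66.7% of the summed beta level (66.1% ± 1.87, SD, n = 4), and Itgb1 made up 31.7% ± 3.46. Itgb1 minus Itgb5 was -1.07 ± 0.20 log2 units per kb, with Itgb5 higher in 4 of 4 libraries.

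For the beta and alpha integrin genes with the largest mean share of their class, the 250 bases before the RefSeq start (GRCm38.p6) are shown. They are given 5′ to 3′ on the gene's strand. The Itgb5 window is at chr16:33829415-33829664 on the plus strand, and the Itga5 window at chr15:103366792-103367041 on the minus strand. Itgb5 was high with little spread, and Itga5 was the detected alpha gene with the widest spread. Any part of these bases in that spread was not tested.
Itgb5: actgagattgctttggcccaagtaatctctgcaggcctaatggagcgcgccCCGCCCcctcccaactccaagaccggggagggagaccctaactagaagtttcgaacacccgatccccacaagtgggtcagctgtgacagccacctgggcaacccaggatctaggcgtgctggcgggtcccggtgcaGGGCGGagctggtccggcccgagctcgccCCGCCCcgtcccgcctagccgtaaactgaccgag
Itga5: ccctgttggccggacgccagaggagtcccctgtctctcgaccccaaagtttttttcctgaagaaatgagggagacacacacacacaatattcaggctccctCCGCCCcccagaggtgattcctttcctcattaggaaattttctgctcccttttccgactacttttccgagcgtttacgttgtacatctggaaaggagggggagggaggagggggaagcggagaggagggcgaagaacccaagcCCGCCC
Capitals mark GGGCGG on either strand, the core of the GC box bound by SP-family factors, which occurred 3 times before Itgb5 and 2 times before Itga5, and no other searched motif overlapped these. The same letters were in 32.7% of 32851 RefSeq promoters of this length. Neither window held the AP-1 letters TGANTCA (6.75% of promoters), the TEAD letters GGAATG (12.6%), the SMAD palindrome GTCTAGAC (0.167%) or a CArG box, the element bound by SRF (1.47%). Of the 40 genes, 25 had an entry in the promoter table, and of these 10 held GGGCGG, 4 GGAATG, 2 a CArG box, 1 TGANTCA and none GTCTAGAC. The CArG box letters were before Lama2 and Itgb6.

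The other partners of alpha v were lower. Itgb3, which with alpha v binds vitronectin, osteopontin and fibronectin, had levels of 5.58, 5.77, 7.82 and 8.04 (6.80 ± 1.31). Libraries 3 and 4 were higher than libraries 1 and 2, and the highest library exceeded the lowest 5.49-fold. Its share of the summed beta level was 0.495%, 0.850%, 3.64% and 3.38%. Per kb, Itgb5 exceeded Itgb3 by 5.45 ± 1.40 log2 units and Itgb1 exceeded it by 4.38 ± 1.60. Itgb8, which activates latent TGF-beta, was low and even, at 1.97, 1.49, 2.03 and 1.80 (1.82 ± 0.24), and Itgb5 exceeded it by 11.34 ± 0.28 per kb. Itgb6, the epithelial partner of alpha v, had 38, 28, 0 and 11 reads. Itgb4, the hemidesmosome subunit that pairs with alpha6, had levels of 2.87, 3.19, 2.13 and 3.04 (2.81 ± 0.47) and 0.0829% ± 0.0279 of the summed beta level.

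Among the 13 detected alpha subunits Itga5 was highest on average and differed most between libraries. Itga5 (chromosome 15, 103344289 to 103366763) is the subunit of the main fibronectin receptor. Its levels were 7.89, 7.40, 10.26 and 10.63 (9.04 ± 1.63), a 9.35-fold range. Libraries 3 and 4 lay far above libraries 1 and 2, as they did for Itgb3. The SD of Itga5 was at percentile 99.3 of all detected genes, and that of Itgb3 at percentile 98.0. Its share of the summed alpha level per kb was 33.1%, 31.8%, 75.0% and 72.8%. The summed beta level was 11.3, 10.1, 3.18 and 2.99 times the summed alpha level per kb in libraries 1 to 4.

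Each of the 6 smooth muscle markers was also higher in libraries 3 and 4 than in libraries 1 and 2. Acta2, the smooth muscle actin gene, had levels of 12.04, 10.76, 12.77 and 13.16. Myh11, a myosin of contractile smooth muscle, had 7.12, 5.33, 8.08 and 9.24, and Tagln, an actin-binding protein gene, had 11.49, 10.54, 11.61 and 12.27. Each of the 6 fibroblast markers was lower in libraries 3 and 4 than in libraries 1 and 2, for example Pdgfra with 7.17, 6.77, 4.92 and 4.83. The part of either list in the values of Itga5 and Itgb3 was not tested. Fn1, encoding fibronectin, the ligand of alpha5 integrin, did not share this order, with 14.41, 12.99, 13.17 and 13.56.

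The other RGD-binding alpha subunits were lower than Itga5. Itgav, the partner of Itgb5 and Itgb3, had levels of 7.30, 6.44, 7.0 and 6.79 (6.88 ± 0.36). It was even between libraries, and Itgav minus Itga5 was -3.28 ± 1.62 per kb. Itga8, a subunit known from contractile smooth muscle, had 5.57, 3.56, 4.33 and 5.74 (4.80 ± 1.04). Library 2 was lowest for Itga8, library 4 highest, and Itga5 exceeded it by 4.82 ± 1.55 per kb. Itga2b, the platelet fibrinogen receptor subunit, had 245, 395, 280 and 220 reads and a level of 3.36 ± 0.43. Of 7 platelet and megakaryocyte markers only Gp1bb was detected (6.67 ± 0.30), Gp9, Ppbp and Gp6 had no reads in any library, Gp1ba had 22 to 73 reads, and Pf4 had 8, 31, 0 and 0.

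The laminin-binding alpha subunits kept a fixed order. Itga3, a receptor for laminins with alpha3 and alpha5 chains, had levels of 7.12, 7.60, 7.82 and 8.35 (7.72 ± 0.51). Itga7, the muscle laminin receptor subunit, had 6.59, 6.69, 6.54 and 7.43 (6.81 ± 0.42). Itga6, a broad laminin receptor subunit that is prominent in epithelia, had 4.20, 4.58, 4.03 and 4.91 (4.43 ± 0.39). Library 4 was highest for each of the 3. Per kb, Itga7 minus Itga3 was -1.41 ± 0.31, Itga3 exceeded Itga6 by 3.96 ± 0.40 and Itga7 exceeded Itga6 by 2.54 ± 0.19, each with 1 sign in 4 of 4 libraries. Itga3 took 18.3% ± 9.03 of the summed alpha level and Itga7 7.10% ± 3.75, or 11.4% with the length of the longest transcript in place of merged exons.

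All 4 collagen-binding alpha genes were detected, and all 4 had an SD above 0.5, against 40.5% of all detected genes. Without library 1, Itga2 and Itga10 remained above 0.5 and the SD of Itga1 was 0.31. Itga11, the subunit of a fibrillar collagen receptor of fibroblasts, had levels of 6.30, 3.91, 3.69 and 3.22 (4.28 ± 1.38). Library 1 stood 2.38 above the next library in this gene, and the SD without library 1 was 0.36. Itga1, whose product favours the collagen of basement membranes, had 6.13, 4.33, 4.80 and 4.92 (5.05 ± 0.77), also with library 1 highest. Itga2, the platelet and epithelial collagen receptor subunit, had 3.73, 1.94, 3.42 and 4.16 (3.31 ± 0.96), and Itga10, known from cartilage, had 4.85, 3.98, 4.38 and 5.44 (4.66 ± 0.63). In both of these genes library 2 was lowest and library 4 highest. Per kb, Itga1 minus Itga11 was -1.09 ± 0.81, but without division by length it was 0.77, because the merged exons of Itga1 span 18599 bases and those of Itga11 5131. Itga1 minus Itga2 was 0.35 ± 0.81 and had each sign in 2 libraries. Of the Itga10 exon bases, 33.5% are shared with another annotated gene on the same strand, so its reads are less certain.

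Itga9 and Itga4, the subunits that bind VCAM1, osteopontin or tenascin, were low to moderate. Itga9 had levels of 5.96, 4.89, 4.53 and 5.00 (5.10 ± 0.61). Itga4 had 3.87, 2.29, 1.67 and 2.34 (2.54 ± 0.94), the lowest of the detected alpha genes, and Itga5 exceeded it by 8.00 ± 2.28 per kb. Library 1 was highest and library 3 lowest for both, as they were for 53.6% and 52.9% of all detected genes. With median-ratio scaling library 2 was lowest for Itga9.

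In order of the level per kb, the detected alpha genes were Itga5 (6.74), Itga3 (5.21), Itga7 (3.80), Itgav (3.46), Itga10 (2.29), Itga9 (2.15), Itga8 (1.92), Itga11 (1.92), Itga6 (1.25), Itga2b (0.91), Itga1 (0.83), Itga2 (0.48) and Itga4 (-1.26). The steps from Itga5 to Itga3, Itga3 to Itga7, Itgav to Itga10 and Itga2 to Itga4 had this order in 4 of 4 libraries. The other neighbours changed places in at least 1 library, and their differences were smaller than the SD of the difference. For example, Itga7 minus Itgav was 0.34 ± 0.62. The order also depends on the length used. The merged exons of Itga6 span 9025 bases and its longest transcript 4310, and those of Itga7 span 8092 and 4020.

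Integrins of leukocytes were near or at 0. Itgax, a subunit of macrophages and dendritic cells, had 0 reads throughout. A count of 0 was taken to allow up to 3 reads per library, whereas the exact Poisson 95% interval reaches 3.69. Itgam, a subunit of myeloid cells, had 20 reads in library 1 (exact Poisson 95% interval 12.2 to 30.9, counting error only) and none in the others, and 68.7% of its exon bases are shared with another annotated gene. Itgb2, the common beta subunit of this family, had 9, 11, 0 and 0 reads. Itgal had 6, 3, 0 and 0 reads, Itgad 5, 0, 0 and 0, and Itgae 4, 8, 7 and 0. Itgb7, which pairs with alpha4 or alpha E, was the highest of them with 16, 71, 29 and 19 reads, and reached the threshold in libraries 2 and 3 only. Of 10 leukocyte markers 1 was detected (Csf1r, 3.76 ± 0.64), with summed scaled reads of 30.4, 32.9, 10.7 and 12.3. Ptprc, the pan-leukocyte marker, had 13, 27, 0 and 12 reads, and the T cell marker Cd3e had none. Cd68 had 49, 35, 42 and 21 reads and C1qa 173, 201, 0 and 18, so both were below the rule but not absent.

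**Figure D2:**
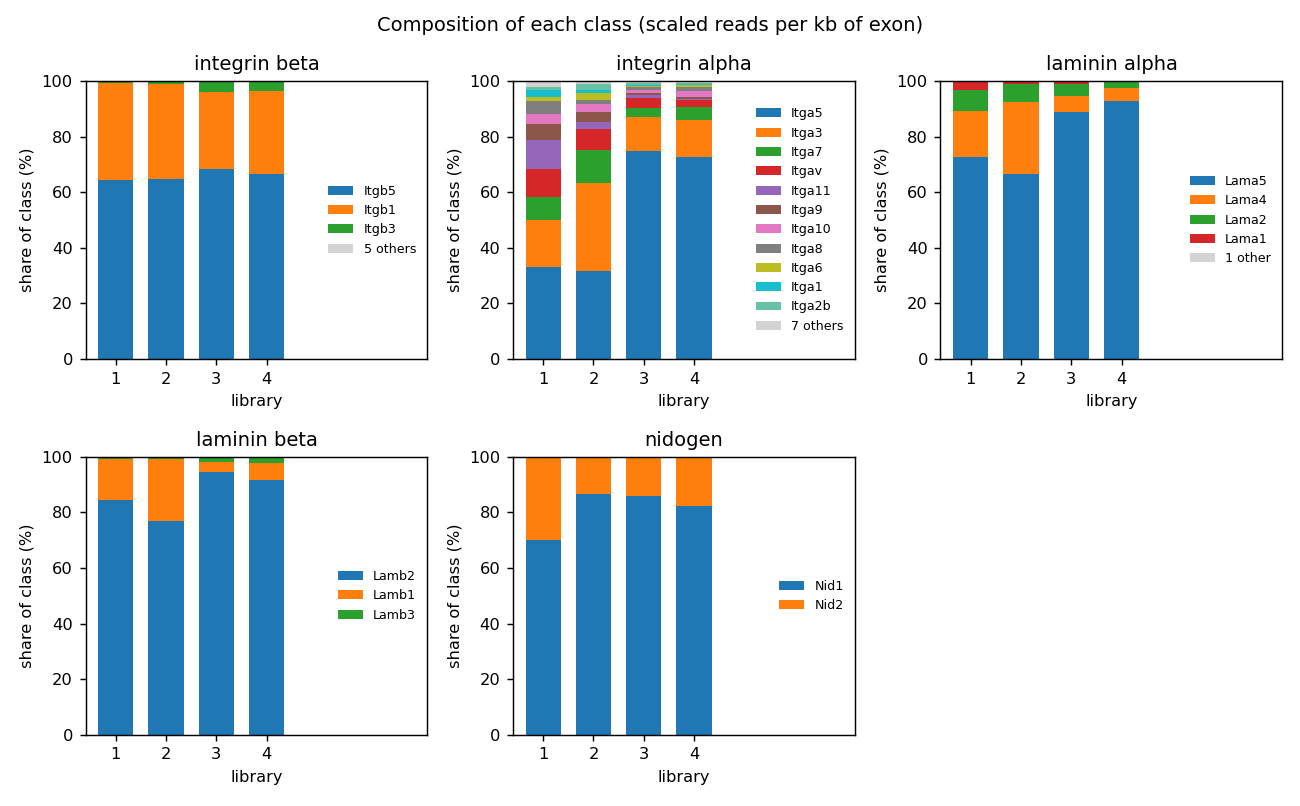
Share of each gene in the summed scaled reads per kb of its class (percent, y axis) in libraries 1 to 4 (x axis), with genes under 1% on average joined in grey. The beta subunits have nearly the same makeup in each library, whereas Itga5 takes 31.8% to 75.0% of the alpha subunits and Lama4 4.55% to 25.9% of the laminin alpha chains.

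Of the laminin alpha chains, Lama5 was the most abundant per kb in every library. Lama5 (chromosome 2, 180176373 to 180225859), the most widespread alpha chain of adult tissues, had levels of 8.75, 7.74, 8.62 and 9.29 (8.60 ± 0.64). Lama4, an alpha chain of vascular basement membranes, had 6.68, 6.46, 4.75 and 5.03 (5.73 ± 0.98). Lama2, the alpha chain of muscle laminin, had 6.01, 4.85, 4.69 and 4.44 (5.00 ± 0.70). Library 4 was highest for Lama5, while Lama4 was higher in libraries 1 and 2 than in libraries 3 and 4. Lama5 made up 72.8%, 66.7%, 89.0% and 92.8% of the summed alpha chain level, and Lama4 16.4%, 25.9%, 5.74% and 4.55%. These shares depend on the length used. The merged exons of Lama4 span 12068 bases and its longest transcript 6046, whereas both lengths are 11388 for Lama5. Per kb, Lama5 exceeded Lama4 by 2.96 ± 1.43 and Lama2 by 4.12 ± 0.99, and Lama4 exceeded Lama2 by 1.17 ± 0.64. Lama1, the embryonic alpha chain, had levels of 3.92, 1.49, 2.16 and 0.90 (2.12 ± 1.30), with library 1 highest. Lama3, the alpha chain of epidermal laminin, had 17, 10, 0 and 8 reads.

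Both common beta chains were abundant, and Lamb2 led. Lamb2 (chromosome 9, 108479862 to 108490530), the beta chain of mature muscle and vessel laminins, had levels of 10.55, 9.70, 10.08 and 10.34 (10.17 ± 0.37). Lamb1 (chromosome 12, 31265234 to 31329644) had 8.73, 8.62, 6.08 and 7.14 (7.64 ± 1.27), a 6.27-fold range. Libraries 1 and 2 were the higher ones for Lamb1, as for Lama4, whereas Lamb2 showed no such order. Lamb1 minus Lamb2 was -2.53, -1.78, -4.71 and -3.90 per kb (-3.23 ± 1.32), so Lamb2 was higher in 4 of 4 libraries. The longest transcript of Lamb1 spans 5784 bases, against 9917 for its merged exons, so its share depends on the length used. Per kb of merged exons, Lamb1 made up 14.7%, 22.3%, 3.63% and 6.14% of the summed beta chain level. The fibroblast marker sums were likewise higher in libraries 1 and 2 than in libraries 3 and 4, and their part in the values of Lamb1 and Lama4 was not tested. Lamb3, the beta chain of epidermal laminin, had levels of 4.09, 3.17, 4.43 and 5.09 (4.20 ± 0.80).

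Lamc1 was the main gamma chain, and Lamc3 differed most between libraries of all 31 detected genes. Lamc1 (chromosome 1, 153218922 to 153332786), present in most laminins, had levels of 8.62, 8.08, 7.49 and 7.84 (8.01 ± 0.47). Lamc3 (chromosome 2, 31887291 to 31946539), a chain of restricted expression, had 151, 137, 506 and 2504 reads. Its levels were 2.38, 2.24, 4.52 and 6.41 (3.89 ± 1.98), an 18-fold range, with library 4 highest and libraries 1 and 2 lowest. Its SD was at percentile 99.7 of all detected genes. Lama3 and Lamb3, which encode chains of epidermal laminin, were low per kb beside the leading chain of their class. Of 9 epithelial and mesothelial markers 3 were detected (Upk3b, Krt18 and Msln), and Krt14 and Krt8 had no reads. Epcam had 1, 9, 0 and 0 reads, Cdh1 10, 24, 15 and 16, and Krt5 0, 12, 0 and 0.

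Perlecan was the most abundant linker. Hspg2 (chromosome 4, 137468769 to 137570630) had levels of 11.74, 10.64, 10.64 and 11.07 (11.02 ± 0.52). Nid1 (chromosome 13, 13437602 to 13512275) had 8.48, 7.74, 7.03 and 7.42 (7.67 ± 0.61). Nid2 (chromosome 14, 19751257 to 19811787) had 6.83, 4.65, 4.01 and 4.76 (5.06 ± 1.22). Library 1 was highest for each of the 3, and for Nid2 it stood furthest from the rest, with an SD of 0.40 without library 1. The SD without library 1 was 0.36 for Nid1 and 0.25 for Hspg2. Per kb, Hspg2 exceeded Nid1 by 2.31 ± 0.35 and Lamc1 by 2.22 ± 0.31, and Nid1 exceeded Nid2 by 2.18 ± 0.66. Nid1 made up 70.1%, 86.4%, 85.8% and 82.4% of the summed nidogen level.

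Over the whole set, 20 differences between genes were compared within libraries, and 19 kept their sign in all 4 with merged exon length. An exact permutation test that flips signs (two-sided, 16 arrangements) cannot fall under p = 0.13 with 4 libraries, so no difference could pass 0.05. The 19 differences reached that smallest p, with a Benjamini-Hochberg adjusted p of 0.132 over the 20 exact tests. The exception, Itga1 minus Itga2, gave an exact p of 0.5.

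**Figure D3:**
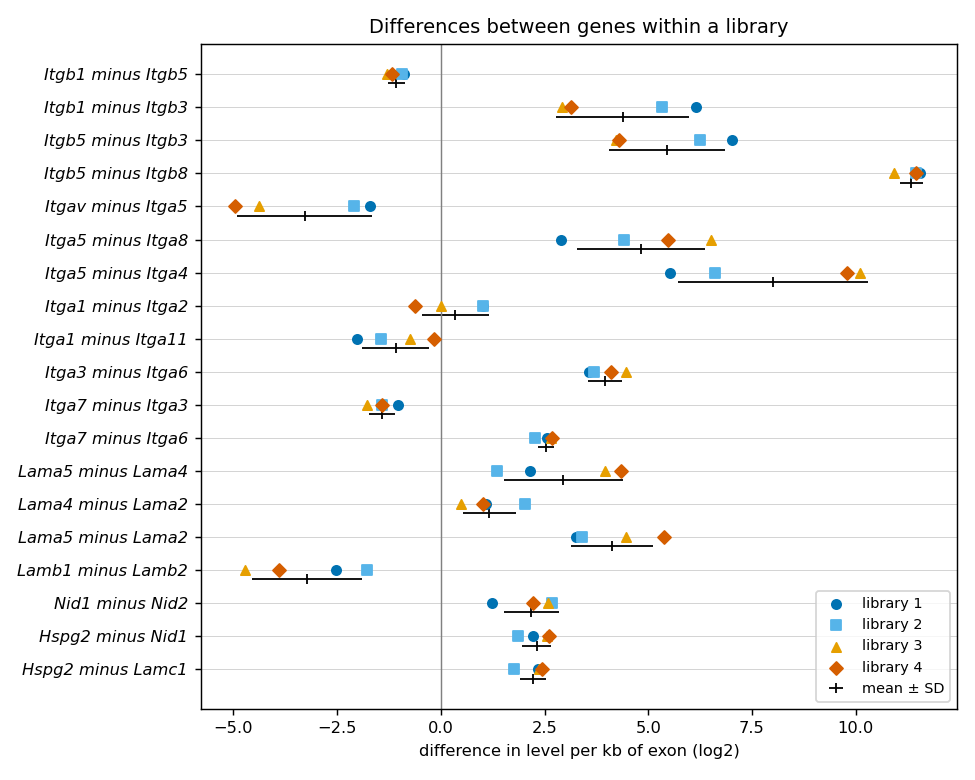
Difference in level per kb of exon between 2 genes (log2, x axis) in each library (symbols), for 19 of the 20 pairs, with mean ± SD as a black bar under the points. All differences shown but Itga1 minus Itga2 lie on 1 side of 0 in 4 of 4 libraries.

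The spread between libraries was wide for many of these genes. Of the 31 detected genes, 20 had an SD above 0.5, against 40.5% of all detected genes, and 8 had an SD above 1, against 5.8%. The 8 were Lamc3, Itga5, Itga11, Itgb3, Lama1, Lamb1, Nid2 and Itga8. The first count leans on library 1: without it 12 of 31 had an SD above 0.5, against 27.2% of all detected genes, and 11 of these were among the 20. With median-ratio scaling 19 of 31 were above 0.5, against 30.8%, and 16 of these were among the 20. The median SD was 0.63 for the 31 genes and 0.43 for all detected genes. The largest counting error of a library's log2 value among the 8 genes with an SD above 1 was 0.19, for Lama1.

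**Figure D4:**
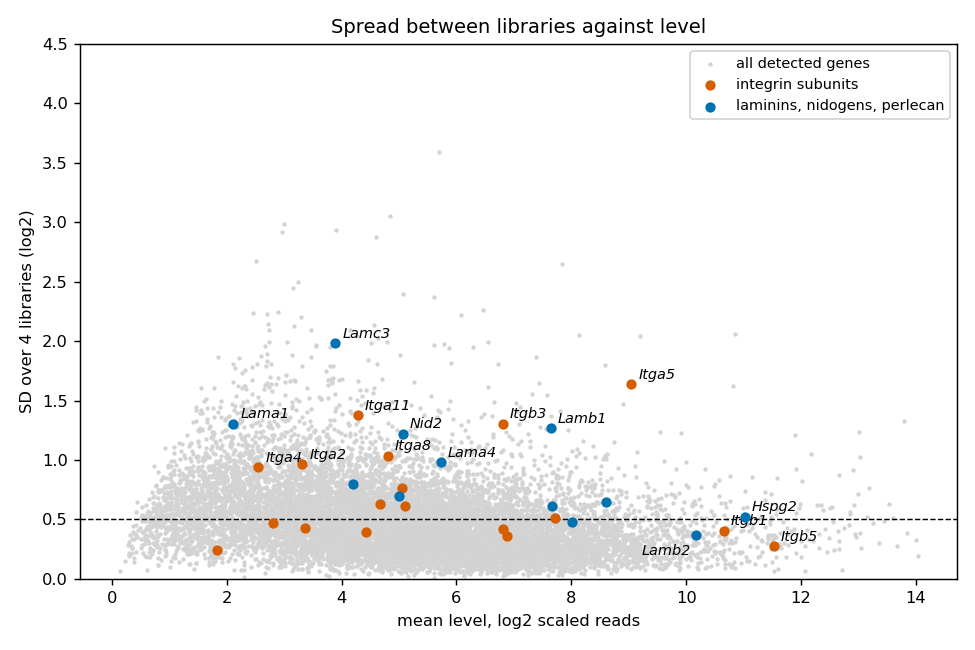
SD over the 4 libraries (log2, y axis) against the mean level (log2 scaled reads, x axis) for all detected genes (grey), the integrin subunits (orange) and the laminins, nidogens and perlecan (blue), with a dashed line at an SD of 0.5. Itga5, Itgb3 and Lamb1 lie above an SD of 1, and Itgb5, Itgb1 and Lamb2 lie below the line.

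Which library was highest also differed from the rest of the genes. Library 4 was highest for 11 of the 31 genes, against 10.8% of all detected genes, and library 1 for 16, against 53.6%. Libraries 2 and 3 were highest for 2 each, against 23.6% and 12%. Library 2 was lowest for 12, against 13.2%, and library 3 for 12, against 52.9%. Library 1 was lowest for 3 (16.3%) and library 4 for 4 (17.5%). With median-ratio scaling library 4 was highest for 14 of the 31 (17.2% of all detected genes) and library 2 lowest for 14 (20.2%), while library 1 was highest for 11 (31.0%).

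**Figure D5:**
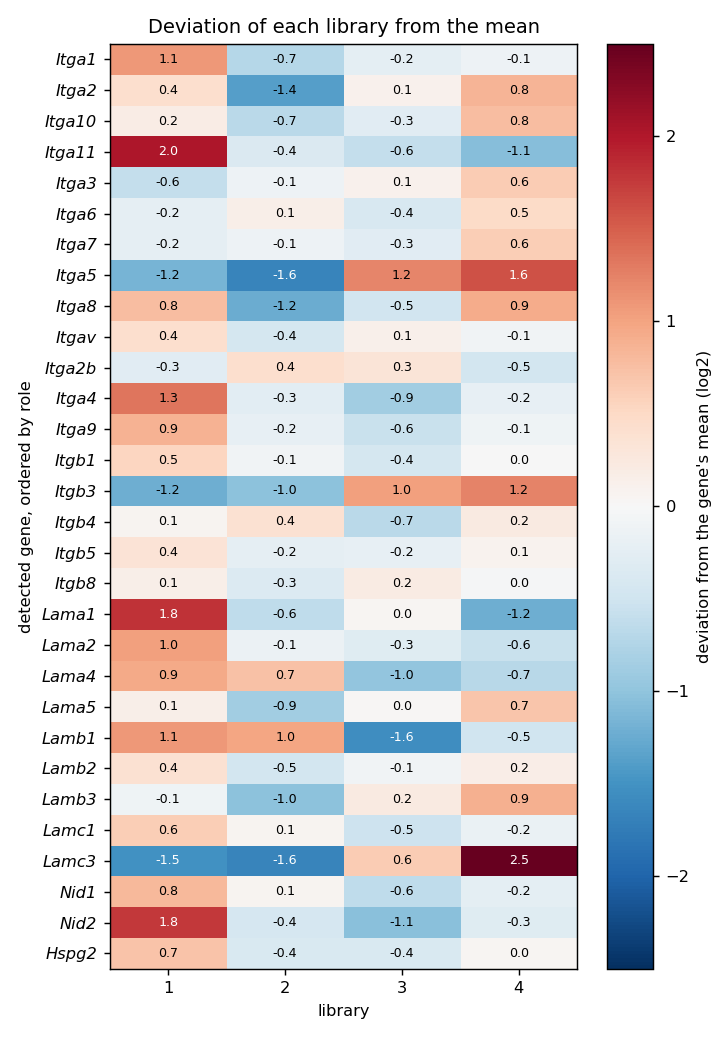
Deviation of each library (columns) from the gene's mean log2 level for 30 of the detected genes (rows, ordered by role), with red for higher and blue for lower. Itga5, Itgb3 and Lamc3 are red in libraries 3 and 4, Lama4 and Lamb1 are red in libraries 1 and 2, and Itga11, Lama1 and Nid2 are red mainly in library 1.

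Other genes of the basement membrane were mostly detected, at 15 of 16 against 47.4% of all genes, with a list median of 7.24, against 0.13 for all genes. Col4a1 and Col4a2, the common type IV collagen chains, averaged 12.45 ± 0.22 and 12.31 ± 0.37, and Smoc1, a matrix calcium-binding protein gene, 9.86 ± 0.49. These were the 3 highest of the list per kb, and Egflam was the 1 not detected. Col4a3 and Col4a4, chains of specialised basement membranes chosen here after their values were seen, had levels of 3.71, 2.39, 7.08 and 7.11, and of 4.21, 2.75, 6.26 and 6.84. Libraries 3 and 4 were the higher ones for both, as for Lamc3. Col4a5 and Col4a6 of the same list did not share this order. Their levels were 9.34, 8.30, 7.46 and 8.35, and 8.02, 7.13, 6.17 and 7.36, with library 1 highest and library 3 lowest. Of the 15 detected genes 7 had an SD above 0.5, against 40.5% of all detected genes.

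The genes of the adhesion complex, which couples integrins to actin, were detected in 29 of 33 cases, against 47.4% of all genes, with a list median of 6.53. Tln1, encoding talin, which activates integrins by binding beta tails, averaged 10.69 ± 0.43. The actin crosslinker genes Actn1, Flna and Actn4 averaged 11.37 ± 0.44, 11.88 ± 0.42 and 10.69 ± 0.60, and were the highest per kb at 8.90, 8.65 and 8.07. Fermt1, Fermt3 and Parvg, the epithelial and blood cell forms of kindlin and parvin, and Itgb1bp2, encoding melusin of striated muscle, were not detected. Fermt1 had no reads, Parvg had 1, and Itgb1bp2 had 28, 8, 176 and 195. Of the 29 detected genes 9 had an SD above 0.5, against 40.5% of all detected genes.

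Laminin receptors outside the integrin family were also present, with 14 of 15 genes of the dystroglycan complex and related receptors detected (47.4% of all genes) and a list median of 5.13. Dag1, encoding dystroglycan, averaged 6.98 ± 0.75, Bcam, a receptor for laminin alpha5, 8.82 ± 0.47, and Large, which glycosylates dystroglycan for laminin binding, 7.06 ± 0.39. Bcam was the highest of the 15 per kb, at 7.14 in these libraries. Of the 14 detected genes 9 had an SD above 0.5, against 40.5% of all detected genes.

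Among 27 genes of integrin ligands 19 were detected, against 47.4% of all genes, with a list median of 7.99. The highest per kb were Col1a1 (11.30), Ctgf (10.86) and Thbs1 (10.06), followed by Fn1 (9.99). Vtn, encoding vitronectin, the ligand of alpha v beta5, and the fibrinogen genes Fga, Fgb and Fgg had no reads in any library. The other genes not detected were Edil3, Tgfbi, Madcam1 and Cdh1. Of the 19 detected genes 16 had an SD above 0.5, against 40.5% of all detected genes. Col4a1, Col4a2, Tln1, Flna and Actn1 were not among the genes with an SD above 0.5, like Itgb5 and Itgb1. Their lists also held genes above it, 7 of 15 detected basement membrane genes and 9 of 29 detected adhesion complex genes. Examples were Ntn4 (1.26), Vcl (1.07) and Actn4 (0.60), and Hspg2 was above it as well (0.52). The SD of Hspg2 was 0.38 with median-ratio scaling and 0.25 without library 1, so its place above 0.5 depends on both.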

How the data were processed

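The deposited file is a single gene table (25965 genes, 4 libraries) whose values are on a log2 scale. Per the labels' protocols, libraries were made from 4 ug of total RNA (integrity number 7.8 to 9) with a strand-preserving poly(A) kit. The submitters' processing notes name Trim Galore, cutadapt, TopHat and the build GRCm38. Which program and annotation counted the reads, and with which strand setting, is not given in the sources used here. Values of overlapping genes and paralogs are therefore less certain. From the values, each deposited log2 value is that of an integer read count multiplied by 1 factor per library, and genes with no reads were set to 0.9 read. Of values above that, 99.7% to 99.8% came out within 0.05 of a whole read. Intervals and the floor of 3 reads for a count of 0 cover counting error only.

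Symbols were matched to GENCODE M21 (GRCm38) by name and position (87.1% of genes, 40 of 40 described here) for merged exon length; of matched genes 58.6% had the deposited start and end. Where a symbol occurred more than once, the row with the highest mean was used for the lists. The genes and lists were chosen with earlier results of these data known. The 40 genes are named with their values, except that some items, 1 of the 40 among them, are not reported here; counts include them. Of each related list the rule names the 3 genes highest per kb, the first listed and those not detected. Of each marker list it names the first 3 and the highest. This was not done in full for the Schwann cell, endothelial and striated muscle lists. Other markers were named after their values were seen. Schwann cell (1 of 5 detected, S100b), endothelial (4 of 7) and striated muscle markers (0 of 7) were also checked. No test between groups was possible with 1 group. Alternatives were the detection and SD thresholds, median-ratio scaling, the length used, zeros set at 3 reads or a read in 1 library (the last 2 chosen after seeing the data) and leaving out each library. The SD call and the recovery of reads were tested on simulated counts, with counting error as the only spread in unchanged genes. The permutation test was checked on fixed values. Shares, levels per kb, lists and library order were not tested this way. The work was done in Python 3.11.15 with scipy 1.17.1, numpy 2.4.6, matplotlib 3.10.9 and pandas 2.3.3.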

Additional observations from a re-analysis of the deposited data

Results flagged for a closer look

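In 77 sets of 4 values (31 levels, 20 differences and 26 shares), 2 held a library far from the other three by Dixon's ratio, the gap to the nearest value over the whole range, with a critical value of 0.83. Chance flags about 1 in 20 such sets. Itgb5 minus Itgb8 per kb was 11.54, 11.44, 10.93 and 11.45 in libraries 1 to 4, with library 3 low (ratio 0.840). Hspg2 minus Lamc1 was 2.33, 1.77, 2.36 and 2.43, with library 2 low (ratio 0.849). Both differences had the same sign in 4 of 4 libraries.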

How the results depend on the processing

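The count of detected genes was 31 of 40, and 30 or 32 with a threshold of 1 or -1. It was 33 when 1 or more libraries sufficed. Median-ratio size factors and leaving out each library gave 31. A read in at least 1 library (added after the data were seen) gave 39. Of 31 detected genes, 20 had an SD above 0.5, 8 above 1, and 12 to 20 with each library left out. The median level per kb of the detected genes was 2.47, or 5.30 without division by length. The share of Itgb5 was 66.1%, or 62.2% without division by length. Itga1 minus Itga11 was -1.09 per kb and 0.77 without division by length, the 1 difference of 20 whose mean reversed. No mean of the 20 reversed with the longest transcript in place of merged exons or with a library left out. Signs in single libraries can still depend on the length used. Itga1 minus Itga11 was only -0.15 in library 4, and the longest transcript of Itga1 spans 10967 bases, against 18599 merged. No paired analysis was possible because the libraries form 1 group, so there were no groups to pair; the differences between genes were taken within each library. Levels under about 30 reads are limited by counting error, and 4 libraries cannot give an exact p under 0.13.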
